A study of Mus musculus with 4 samples.

Results

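The complement and coagulation genes of mouse liver were examined for binding of the glucocorticoid receptor (GR) and of E2A. The 39 members are genes of complement, clotting, anticoagulation and fibrinolysis with their plasma cofactors, taken from a fixed list of gene symbols. That list was chosen with earlier results of these data known. A peak was assigned to a member when the deposited annotation named that gene as the nearest one. Of the 39 members, 33 had at least 1 called peak, among 6521 gene symbols named in the peak lists, and the other 6488 symbols served as the comparison.

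GR is the nuclear receptor for glucocorticoids, and E2A denotes the E proteins encoded by Tcf3, among them E47, a basic helix-loop-helix factor that binds E-Boxes. Chromatin immunoprecipitation followed by sequencing (ChIP-Seq) was performed for each factor in 2 liver samples, giving 4 samples in all, from male C57BL/6 mice of the genotype E47+/+. The mice were on chow, untreated according to the labels (a description in the supplement calls them treated with Dex, the synthetic glucocorticoid dexamethasone), 10 to 16 weeks of age according to the methods, and the livers were collected at zeitgeber time 10, that is 10 h after lights on. Whole liver was used, so the cell types of the tissue were mixed. No group with a mutant genotype or an input control was analysed here, and each group is therefore a wild-type binding map rather than a test of a treatment.

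Most plasma proteins of the complement and clotting cascades are made by hepatocytes and secreted into blood. Complement is set off by antibody complexes, by sugar-binding lectins or spontaneously, converges on the cleavage of C3 and ends with a pore of the terminal components. Clotting converges on thrombin, which turns fibrinogen into fibrin, and plasmin dissolves the clot. Several of these proteins, fibrinogen and C3 among them, are acute-phase proteins whose genes are known to respond to inflammatory cytokines together with glucocorticoids.

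The lists held 4291 and 7334 called peaks in GR replicates 1 and 2, and 4028 and 1892 in E2A replicates 1 and 2. They give positions, widths and the nearest gene, but no read counts or peak heights, so the depth behind a peak is unknown and binding strength was not measured. All 6 hepatocyte markers examined (Alb, Ttr, Apoa1, Apob, Apoh and Tat) had GR and E2A peaks, none of 4 B cell and 3 T cell markers had either, and of 3 macrophage markers Cd68 alone had a GR peak. The descriptions attached to the E2A samples are at odds with their other labels: both name a GR ChIP, and the one for replicate 2 also names E47-/- mice. The main counts and shares are also given without each E2A replicate. Since the descriptions of both name a GR ChIP, leaving out 1 of them cannot resolve that conflict.

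GR peaks were annotated to 30 of the 39 complement and coagulation genes (76.9%, 95% Wilson interval 61.7 to 87.4%), against 23.6% of all 21938 protein-coding genes. E2A peaks were annotated to 19 members (48.7%, 33.9 to 63.8%), against 13.8% of protein-coding genes. A shared peak, meaning a GR and an E2A region with at least 1 bp in common, occurred at 15 members (38.5%, 24.9 to 54.1%), against 8.84%. Regions here are called peaks of the replicates of 1 ChIP merged where they shared at least 1 bp. A GR region called in both replicates was found at 23 members (59.0%, 43.4 to 72.9%), against 8.41% of protein-coding genes. An E2A region called in both replicates was found at 6 members (15.4%, 7.25 to 29.7%), against 4.15%. These were C3, C8b, Fga, Fgb, Fgg and Plg. All intervals cover counting error only. Since the members were chosen with earlier results of these data known, these contrasts describe the list and do not test the pathway. The members occupy 30 loci when genes at most 100000 bp apart are joined, and 7 of these loci hold 16 of the members, so the genes are not independent of each other.

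**Figure D1:**
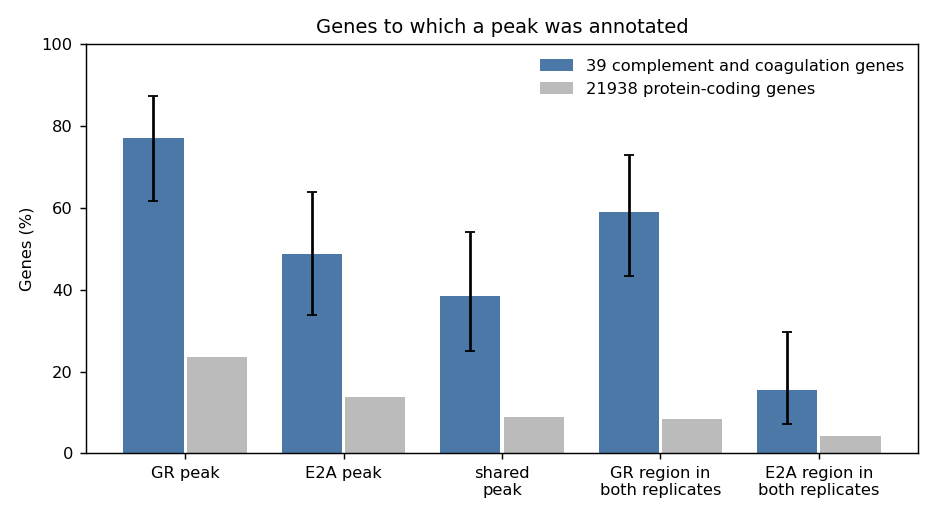
Percent of the 39 complement and coagulation genes (blue, with 95% Wilson intervals of counting error as error bars) and of all 21938 protein-coding genes (grey) to which a peak of each kind was annotated. GR peaks were annotated to 76.9% of the members and shared peaks to 38.5%, and for all 5 kinds the blue bar is the taller one.

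The comparison with genes that were already in the lists gave smaller differences. Among symbols with at least 1 peak in any sample, 90.9% of the 33 listed members and 86.9% of the 6488 other symbols had a GR peak, and 57.6% and 51.4% had an E2A peak. A shared peak occurred at 45.5% of the listed members (29.8 to 62.0%) and at 32.9% of the others. The difference was widest for GR regions called in both replicates, found at 69.7% of the listed members (52.7 to 82.6%) and 31.1% of the others. For E2A regions called in both replicates the shares were 18.2% (8.61 to 34.4%) and 15.4%. Members with a GR region had more of them, a mean of 2.17 against 1.55. Counted by region, 40.0% of member GR regions (29.0 to 52.1%) and 31.1% of the others were called in both replicates, and the interval holds the latter value. For E2A regions these shares were 18.9% (9.48 to 34.2%) and 23.4%. These are counts without a test, and they were not matched for the expression, length or spacing of the genes.

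Each sample gave its own number of member peaks. GR replicate 1 had 36 called peaks at 24 members, and GR replicate 2 had 55 at 29 members. E2A replicate 1 had 22 called peaks at 16 members, and E2A replicate 2 had 22 at 10 members. Both GR samples thus had more peaks at these genes than either E2A sample, with means of 45.5 and 22 and a difference of 23.5 (two-sided exact permutation test over the 4 samples, p = 0.333, the smallest value that 2 against 2 samples allow). The paper states that both ChIPs used the same livers. With same-numbered samples as pairs the differences were 14 and 33 (exact permutation within pairs, p = 0.5, the smallest value that 2 pairs allow). As a share of all called peaks, members took 0.839% and 0.750% in the GR replicates and 0.546% and 1.16% in the E2A replicates, so the shares of the 2 ChIPs overlapped.

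Without E2A replicate 1, E2A peaks were found at 10 members and shared peaks at 8. Without E2A replicate 2, the counts were 16 and 13. When every region had to be called in both replicates, E2A peaks were found at 6 members and shared peaks at 2, C3 and Fgg. Counts for E2A therefore rest in large part on single samples, whereas GR peaks were found at 29 members without GR replicate 1 and at 24 without GR replicate 2. Shares over all genes are not given for these settings, except for E2A regions called in both replicates (15.4% of members, 4.15% of protein-coding genes). The other counts therefore cannot be set against the shares computed with all samples.

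**Figure D2:**
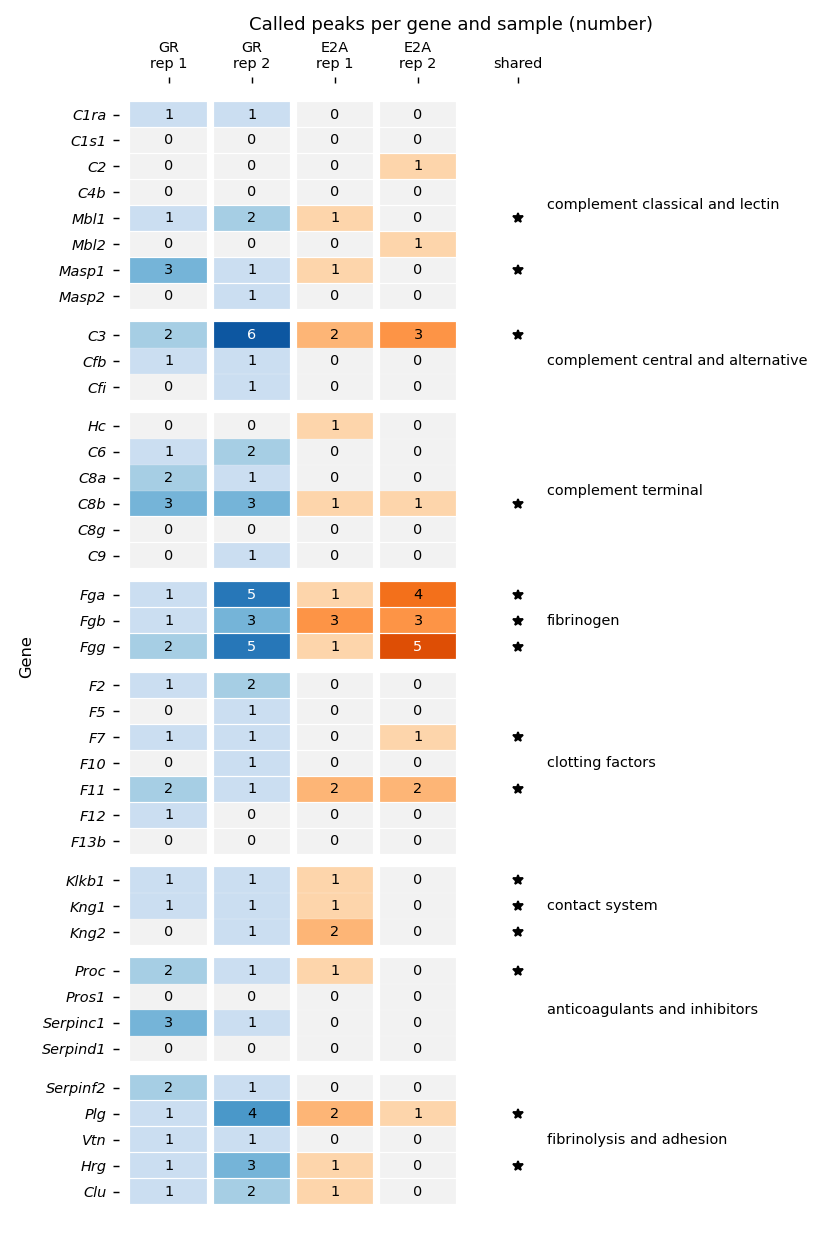
Number of called peaks annotated to each complement and coagulation gene (rows, grouped by role) in each of the 4 samples (columns), with darker shades for higher numbers and a star where a GR and an E2A region shared at least 1 bp. The 7 members with peaks in all 4 samples are C3, C8b, Fga, Fgb, Fgg, F11 and Plg, and 6 members have none.

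Peaks occurred in all 4 samples at 7 members, in 3 samples at 8, in 2 samples at 9 and in 1 sample at 9. Members with GR regions often had several of them: 17 of 30 (56.7%) had at least 2, against 27.5% of the other symbols with a GR region. The median was 2 regions per member and 1 per other symbol. For E2A, 7 of 19 members (36.8%) and 25.0% of the others had at least 2 regions.

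Of the 8 initiating components of the classical and lectin pathways, 4 had a GR peak (50%), 4 an E2A peak (50%) and 2 a shared peak (25%), against 76.9%, 48.7% and 38.5% of all members. C1ra, a protease of the C1 complex, had 1 peak in each GR replicate and none for E2A. That region, at -2930 bp from its transcription start site (TSS), lies in the 3′ UTR of the neighbouring gene C1rl. Distances are from the near edge of a region to the TSS, with upstream positions negative and 0 where the region covers the TSS. Masp2, a lectin pathway protease, had a single promoter peak in GR replicate 2.

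Mbl1 and Masp1, a mannose-binding lectin and a protease that works with it, had shared peaks. Mbl1 had 1 and 2 called peaks in the GR replicates, 1 in E2A replicate 1 and none in E2A replicate 2. Its shared region lay 9264 bp from the TSS, beyond the gene, and was called in both GR replicates. Masp1 had 3 and 1 GR peaks, 1 in E2A replicate 1 and none in E2A replicate 2. All lay in introns, and the shared one, 8908 bp from the TSS, was called for GR in replicate 1 only, whereas the region at 2455 bp was called in both GR replicates and did not meet E2A. C2, the protease subunit of the classical convertase, and Mbl2, a related lectin, had 1 E2A peak each, in replicate 2, and no GR peak of their own. By the deposited annotation, the C2 peak covered its promoter and the Mbl2 peak lay 8785 bp from the TSS. GR regions annotated to the neighbouring genes Cfb, in both replicates, and Zbtb12, in replicate 2, overlapped the body of C2 and are not counted for it.

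C3, the central component of complement, had peaks in every sample. There were 2 and 6 called peaks in the GR replicates and 2 and 3 in the E2A replicates. At the promoter, a GR region of 2783 bp and an E2A region of 617 bp, each called in both replicates, overlapped. It is 1 of 2 places at the 39 genes where all 4 samples had a peak at a shared region. Shared regions also lay at -2515 bp, called in both E2A replicates and GR replicate 2, and at -4881 bp, called in both GR replicates and E2A replicate 2. In GR replicate 2, a further 3 regions within the body of C3 were annotated to the microRNA gene Mir6978 and are not counted among the C3 peaks.

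The C3 promoter sequence is shown because peaks of all 4 samples cover it in full, and the upstream region because it holds the overlap of 3 samples. The former is the RefSeq promoter entry of GRCm38, cut to the 250 bases before the TSS, at chr17:57228137-57228386 on the minus strand, the strand of the gene, and was chosen after its values were seen. The latter is the shared stretch at chr17:57230674-57230969 on the plus strand, 296 bases, read from GRCm38, the same assembly as mm10. Capitals mark E-Box matches (CANNTG, searched on both strands, a palindromic pattern), which are letter matches and not measured binding sites.
C3 promoter: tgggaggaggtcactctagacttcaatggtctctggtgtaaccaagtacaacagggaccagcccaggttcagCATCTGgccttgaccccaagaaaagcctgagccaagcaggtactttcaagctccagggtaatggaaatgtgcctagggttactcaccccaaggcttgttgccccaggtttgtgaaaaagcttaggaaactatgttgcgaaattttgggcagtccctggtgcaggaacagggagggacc
C3 upstream region: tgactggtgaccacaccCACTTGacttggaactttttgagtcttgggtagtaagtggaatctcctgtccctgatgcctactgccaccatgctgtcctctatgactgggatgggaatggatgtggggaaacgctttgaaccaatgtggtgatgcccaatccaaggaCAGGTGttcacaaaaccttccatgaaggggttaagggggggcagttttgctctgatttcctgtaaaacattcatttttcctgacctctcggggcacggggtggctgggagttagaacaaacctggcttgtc

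The promoter stretch held 1 E-Box match and 1 match with up to 2 mismatches to the glucocorticoid response element (GRE), the palindromic consensus for GR, and the upstream stretch held 2 and 1. One of the 2 upstream E-Boxes was CAGGTG. Cfb, the protease of the alternative convertase, had 1 peak in each GR replicate and none for E2A, in a promoter region of 1308 bp that reaches into the adjacent C2 gene. Cfi, the protease that inactivates C3b, had 1 promoter peak, in GR replicate 2.

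Of the 6 genes of the terminal components, 4 had GR peaks (66.7%), 2 had E2A peaks (33.3%) and 1 had a shared peak (16.7%), against 76.9%, 48.7% and 38.5% of all members. C8b, a chain of the pore-forming component C8, was annotated with 3 peaks in each GR replicate and 1 in each E2A replicate. The adjacent C8a gene, which encodes another chain, had 2 and 1 GR peaks and none for E2A. Position and annotation differed here: 3 of the 4 GR regions annotated to C8b, at 17249, 24522 and 25373 bp from its TSS, lie inside the body of C8a, as does the E2A region at 24492 bp. The shared stretch, called in both E2A replicates and GR replicate 1, is shown as its central 200 bases, at chr4:104823787-104823986 on the plus strand, and held 1 E-Box match, in capitals.
C8b shared region: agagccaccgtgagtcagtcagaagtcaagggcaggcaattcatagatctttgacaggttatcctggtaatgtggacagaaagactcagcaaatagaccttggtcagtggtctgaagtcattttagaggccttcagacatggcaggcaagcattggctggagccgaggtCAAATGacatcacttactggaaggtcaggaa

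C6 had 1 and 2 GR peaks, and its region called in both replicates lay at -48163 bp. The distances given for C8b are those of the deposited annotation, which counts them from a start inside the gene. C9, the pore-forming subunit, had 1 promoter peak in GR replicate 2. Hc, which encodes complement C5, had 1 peak in E2A replicate 1, at -2082 bp, and no GR peak. C8g had no annotated peak, although a GR replicate 2 region annotated to Fbxw5 lies inside it, 622 bp from its TSS.

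The fibrinogen genes Fga, Fgb and Fgg, which encode the chains of the clot-forming protein, carried 34 of the 135 called peaks at all members. Fgg had 2, 5, 1 and 5 called peaks in GR replicates 1 and 2 and E2A replicates 1 and 2. Fga had 1, 5, 1 and 4, and Fgb had 1, 3, 3 and 3, in the same order. All 3 genes had peaks in all 4 samples, with the larger numbers in replicate 2 of each ChIP for Fgg and Fga.

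The width of the peaks differed between samples at this locus. Over the 62140 bp from 10000 bp before Fgg to 10000 bp beyond Fgb (chr3:82997724-83059863), peaks covered 1955 bp in GR replicate 1, 27051 bp in GR replicate 2, 2443 bp in E2A replicate 1 and 7436 bp in E2A replicate 2. Within the bodies of the 3 genes, 4.09%, 84.0%, 2.39% and 15.7% of the bases lay in a peak, in the same order. GR replicate 2 thus had peaks over most of the transcribed sequence, where GR replicate 1 had narrow ones. Its widest member peak spanned 6010 bp, against 652, 640 and 1872 bp in GR replicate 1 and E2A replicates 1 and 2. In GR replicate 2, 7 of the 55 member peaks (12.7%) were wider than 2000 bp, against 1.81% of its peaks at other symbols, and no member peak of the other 3 samples was.

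**Figure D3:**
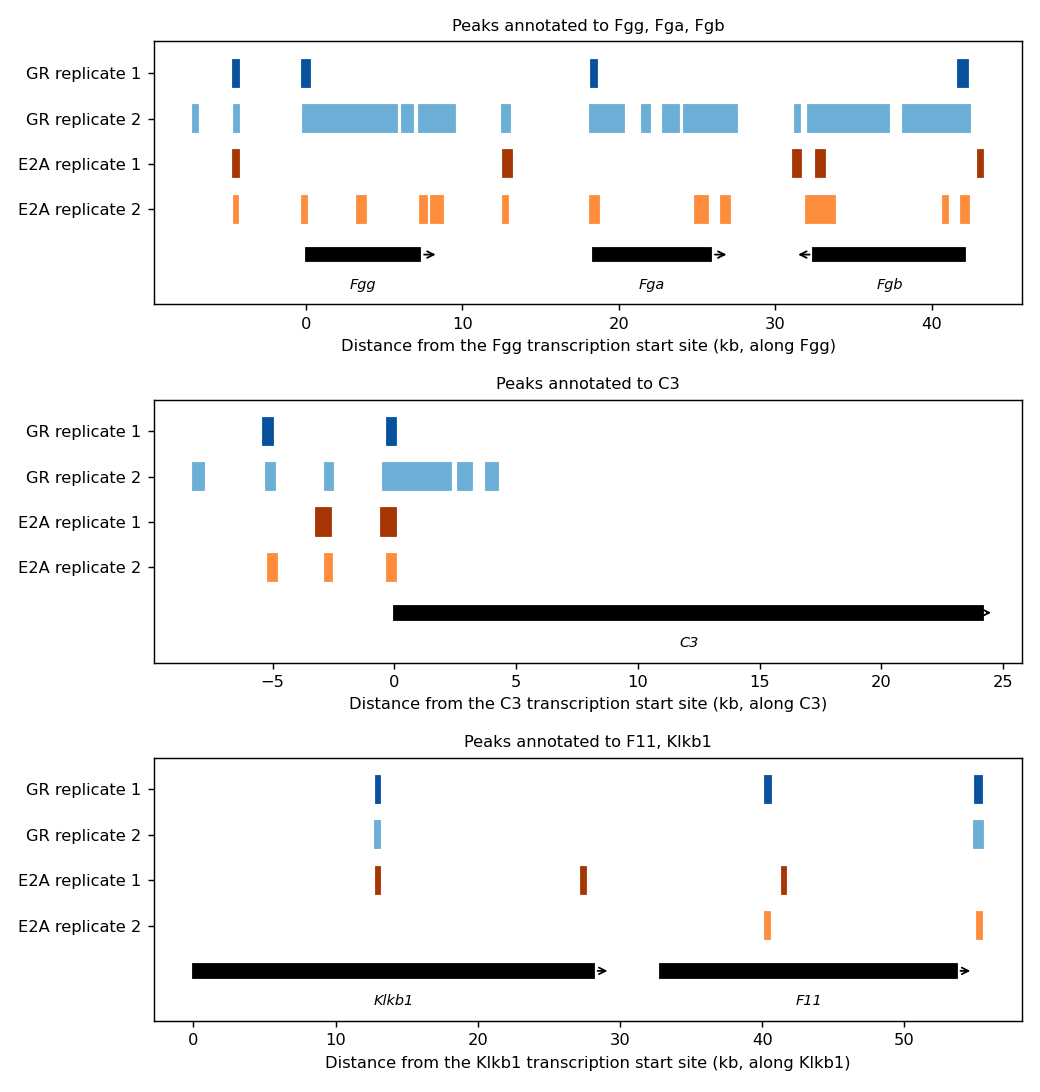
Called peaks annotated to the fibrinogen genes (top), C3 (middle) and F11 with Klkb1 (bottom) in each of the 4 samples, drawn to scale in kb from the TSS of Fgg, C3 and Klkb1, with gene bodies in black and arrows in the direction of transcription. GR replicate 2 covers 84.0% of the fibrinogen gene bodies, and the region upstream of Fgg is called in all 4 samples.

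A compact region at -4246 bp from the Fgg TSS was the other place with peaks in all 4 samples. The GR region spanned 377 bp and the E2A region 423 bp. The regions at the promoter and in the gene body of Fgg that met E2A did so in E2A replicate 2. Upstream of Fga, a shared region at -5390 bp was called in both E2A replicates and GR replicate 2. Downstream of Fgb, which lies on the opposite strand, a shared region was called in GR replicate 2 and E2A replicate 1. These stretches are shown because they are the compact shared ones outside the gene bodies, 200 central bases each, all on the plus strand with E-Boxes in capitals. They lie at chr3:83003186-83003385 for Fgg, chr3:83020431-83020630 for Fga and chr3:83039033-83039232 for Fgb.
Fgg shared region: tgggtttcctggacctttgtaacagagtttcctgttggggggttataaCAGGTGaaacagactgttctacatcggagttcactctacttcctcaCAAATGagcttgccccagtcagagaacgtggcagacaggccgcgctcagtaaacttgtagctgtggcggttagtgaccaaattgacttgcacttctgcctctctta
Fga shared region: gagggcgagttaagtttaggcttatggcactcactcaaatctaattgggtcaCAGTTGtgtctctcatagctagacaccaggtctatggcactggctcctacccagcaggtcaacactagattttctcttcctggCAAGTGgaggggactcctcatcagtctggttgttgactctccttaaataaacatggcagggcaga
Fgb shared region: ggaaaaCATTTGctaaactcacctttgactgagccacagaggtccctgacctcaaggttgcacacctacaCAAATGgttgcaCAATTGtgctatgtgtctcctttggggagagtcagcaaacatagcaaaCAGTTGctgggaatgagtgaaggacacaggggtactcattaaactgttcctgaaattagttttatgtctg

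The Fgg stretch held 2 GRE matches and 2 E-Box matches, 1 of them CAGGTG. The closer GRE match, GAAACAgacTGTTCT at chr3:83003239-83003253, with the half-site positions in capitals, had 1 mismatch, and its first base is the last base of that CAGGTG. The Fga stretch held 2 E-Boxes and 1 match to the FOX consensus. The Fgb stretch held 4 E-Boxes and the C/EBP match TTGCACAA at chr3:83039110-83039117. Neither had a GRE match.

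Without the fibrinogen genes, which were set aside after seeing the data, 27 members had a GR peak, 16 an E2A peak and 12 a shared peak. The share of E2A replicate 2 member peaks with a counterpart in E2A replicate 1 was 31.8% (7 of 22) with the fibrinogen genes and 40% (4 of 10) without them, and 60.1% at other symbols. For E2A replicate 1 the corresponding values were 31.8%, 23.5% and 27.9%. For GR, 72.2% of the 36 member peaks of replicate 1 had a counterpart in replicate 2, against 65.6% at other symbols, and 47.3% of the 55 of replicate 2 had one in replicate 1, against 37.5%.

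Among the clotting factors, 6 of 7 members had a GR peak (85.7%), 5 of them at the promoter, and 2 had an E2A peak (28.6%). Of all members, 76.9% had a GR peak and 48.7% an E2A peak. F2, which encodes prothrombin, had 1 and 2 GR peaks and none for E2A, and its promoter region was called in both replicates. F7, the factor that starts clotting with tissue factor, had 1 promoter peak in each GR replicate, 1 in E2A replicate 2 and none in E2A replicate 1, and these overlapped. F5 and F10, the cofactor and the enzyme of the prothrombinase, each had 1 promoter peak in GR replicate 2. An E2A replicate 2 region inside the body of F5 was annotated to Gm16548 and is not counted for F5. F12, the contact factor, had 1 promoter peak in GR replicate 1, and F13b, a carrier subunit of the fibrin-crosslinking factor, had no peak.

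F11, a protease that amplifies clotting, had 2 and 1 GR peaks and 2 in each E2A replicate. Of its regions, 1 lay downstream of the gene, 22076 bp from the TSS, and was called in both GR replicates and E2A replicate 2. Another shared region, in an intron at 7336 bp, was called in GR replicate 1 and E2A replicate 2. The E2A replicate 1 peaks annotated to F11 met no GR region, and 1 of them lies inside Klkb1. The downstream stretch is shown as the central 200 bases of the overlap of 3 samples, at chr8:45239484-45239683 on the plus strand, and held 3 E-Boxes in capitals and the HNF4 match CAAAGTCCA at chr8:45239543-45239551.
F11 shared region: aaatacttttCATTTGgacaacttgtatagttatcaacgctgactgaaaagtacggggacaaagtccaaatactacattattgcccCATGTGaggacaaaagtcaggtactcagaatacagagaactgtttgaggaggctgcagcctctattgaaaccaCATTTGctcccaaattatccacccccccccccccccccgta

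The 3 genes grouped here as contact system encode the precursor of plasma kallikrein (Klkb1) and the kininogens (Kng1 and Kng2). All 3 had shared peaks, against 38.5% of all members, and all of these were with E2A replicate 1. F12, also a contact factor, was counted with the clotting factors and had no E2A peak. Klkb1 had 1 peak in each sample but E2A replicate 2, all in an intron 12968 bp from the TSS. Kng1 had 1 peak in the same 3 samples, at the promoter. Kng2 had 1 peak in GR replicate 2 and 2 in E2A replicate 1. The promoter regions of Kng2 shared only their ends, since the GR region starts at position 23029560 and the E2A region ends at 23029584 of chromosome 16. Kng1 and Kng2 are close paralogs, and the reads kept were uniquely mapped.

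Among the anticoagulants and inhibitors, Proc, which encodes protein C, had 2 and 1 GR peaks, 1 peak in E2A replicate 1 and none in E2A replicate 2. Its shared promoter region was called for GR in replicate 1, and another promoter region was called in both GR replicates without E2A. Serpinc1, which encodes antithrombin, had 3 and 1 GR peaks and none for E2A, and the region at 8436 bp was called in both replicates. Pros1, the cofactor protein S, and Serpind1, heparin cofactor II, had no peak, and their nearest GR regions lay 1997181 and 74254 bp from the TSS.

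All 5 genes of fibrinolysis and adhesion had a GR region called in both replicates, against 59.0% of all members. Plg, which encodes plasminogen, had 1 and 4 GR peaks and 2 and 1 E2A peaks. Its E2A promoter region was called in both E2A replicates and met a GR replicate 2 region at -300 bp, and the GR region at 1591 bp, called in both GR replicates, met an E2A replicate 1 peak. Hrg, a plasma glycoprotein that binds plasminogen and heparin, had 1 and 3 GR peaks and 1 in E2A replicate 1, with the shared region at the promoter.

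Serpinf2, the main plasmin inhibitor, and Vtn, the adhesion protein vitronectin, had a promoter region in both GR replicates and no E2A peak. The called peaks were 2 and 1 for Serpinf2 and 1 and 1 for Vtn. Clu, which encodes the complement-binding chaperone clusterin, had 1 and 2 GR peaks and 1 in E2A replicate 1, and was the 1 member with peaks of both ChIPs that did not overlap. The E2A peak lay 9462 bp and the GR region of both replicates 1945 bp from the TSS. Peaks of both ChIPs were annotated to 16 members and to 2485 other symbols, and shared peaks to 15 and 2137, so overlap was common at both.

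Across the members, the merged peaks gave 65 GR and 37 E2A regions. Of the GR regions, 25 met an E2A region (38.5%, 27.6 to 50.6%), against 30.7% of 8730 regions at other symbols. Without the fibrinogen genes the share was 30.8% (16 of 52, 19.9 to 44.3%), close to the share at other symbols. The share was 24.6% without E2A replicate 1, against 12.9% at other symbols, and 24.6% without E2A replicate 2, against 26.7%. For regions called in both replicates of both ChIPs it was 7.69%, against 17.2%, so the direction of the difference turned with the E2A sample. Of the E2A regions, 29 met a GR region (78.4%, 62.8 to 88.6%), against 57.9% of 4746 at other symbols. Without the fibrinogen genes this share was 69.6% (16 of 23, 49.1 to 84.4%), an interval that holds the share at other symbols. Without called peaks wider than 2000 bp, 6 of which at members lay at the fibrinogen genes and 1 at C3, the share was 59.5% (22 of 37, 43.5 to 73.7%), against 55.8%. Without GR replicate 2 it was 45.9%, against 35.1%, and without E2A replicate 1 it was 90.9%, against 64.2%. For regions called in both replicates of both ChIPs it was 28.6% (2 of 7), below the 43.9% at other symbols.

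The regions lay close to their genes. Within 10000 bp of the TSS were 57 of 65 member GR regions (87.7%), against 71.7% at other symbols, and 33 of 37 member E2A regions (89.2%), against 63.4%. Outside promoters, the median distance was 5390 bp for member GR regions and 13684 bp for others, and 7349 and 14649 bp for E2A. Promoters, from -1000 to 500 bp in the deposited annotation, held 26 GR regions (40%, 29.0 to 52.1%), against 50.5% at other symbols. The direction of this difference turned with the sample: without GR replicate 2 the shares were 41.7% and 34.2%, without GR replicate 1 they were 41.8% and 57.5%, and for regions called in both replicates 46.2% and 45.7%. Of the E2A regions, 12 lay at promoters (32.4%, 19.6 to 48.5%), against 39.2%. The share of GR regions that met E2A was 38.5% both at promoters (10 of 26) and elsewhere (15 of 39).

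**Figure D4:**
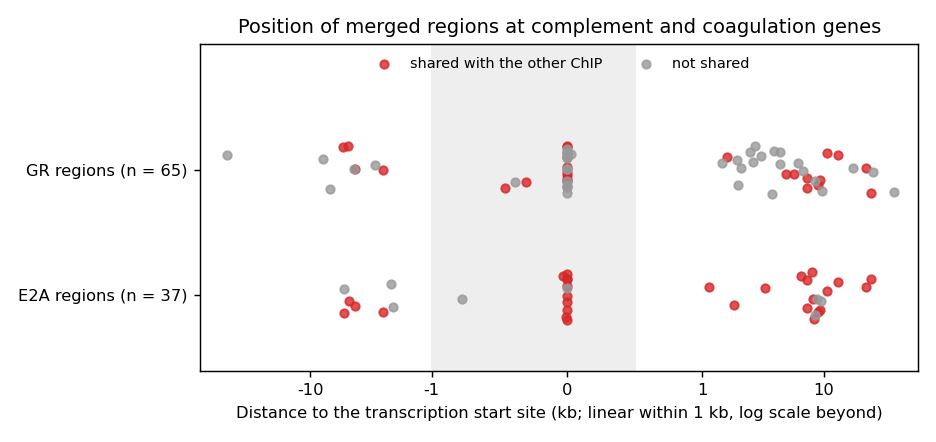
Distance of each member GR region (upper band, n = 65) and E2A region (lower band, n = 37) from the TSS of its gene in kb, linear within 1 kb and logarithmic beyond, with shared regions in red, others in grey and the promoter range shaded. The vertical spread within a band has no meaning. Of the GR regions, 25 are red, at promoters as well as at a distance.

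The gene features that held the peaks are given as shares, without a test. Of the 91 called GR peaks at members, 9 (9.89%) were intergenic, against 21.2% at other symbols, and 9 (9.89%) were annotated to a 3′ UTR, against 1.90%. Of those in a 3′ UTR, 4 were at the fibrinogen genes in GR replicate 2, and the rest were at C8b, C1ra and Hrg. Of 44 E2A peaks, 12 (27.3%) were intergenic, against 24.1% at other symbols, and 6 (13.6%) were downstream of a gene, against 1.84%. The downstream ones were annotated to Fgb, F11 and C3. Among them, the C3 peak at -4822 bp and the F11 peak at -5221 bp lay upstream of the gene they were annotated to.

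Sequence at the GR regions was read in the central 200 bp of regions no wider than 2000 bp, 58 at members and 8589 at other symbols. The GRE consensus with up to 2 mismatches was found in 10 member windows (17.2%, 9.64 to 28.9%) and in 17.8% of the others. E-Boxes (CANNTG) were found in 37 (63.8%, 50.9 to 74.9%) and in 54.6%, CAGCTG in 13.8% and 11.8%, CAGGTG in 8.62% and 13.3%, and CACGTG in 1.72% and 5.57%. The last 3 patterns are included in CANNTG. All of these member intervals held the value at other symbols. For CANNTG that depended on the sequence searched and the sample: in the central 400 bp it was found in 91.4% (81.4 to 96.3%) against 77.8%, in whole regions in 96.6% (88.3 to 99.0%) against 80.1%, and without GR replicate 1 in 70.8% (56.8 to 81.8%) against 51.5%. Without GR replicate 2 the values were 63.9% (47.6 to 77.5%) and 61.0%. Promoter windows made up 22 of the 58 member windows and 4315 of the 8589 others. In the central 200 bp at promoters, CANNTG was found in 54.5% (34.7 to 73.1%) and 41.0%. Outside promoters it was found in 69.4% (53.1 to 82.0%) and 68.3%.

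The consensus of C/EBP, a family of hepatocyte and acute-phase factors, was found in 6 GR windows (10.3%, 4.83 to 20.8%), against 4.69% at other symbols, an interval whose lower end lies just above that value, among 9 patterns examined. In the 37 E2A windows it was found in 6 (16.2%, 7.65 to 31.1%), against 7.54% of 4711, and E-Boxes were found in 26 (70.3%, 54.2 to 82.5%), against 59.2%. The consensus of HNF6, a hepatocyte factor, was found in 4 GR windows (6.90%) and in none of the 37 E2A windows, against 5.41% and 7.75%. The GR and E2A windows of a shared region overlap and are not separate evidence.

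**Figure D5:**
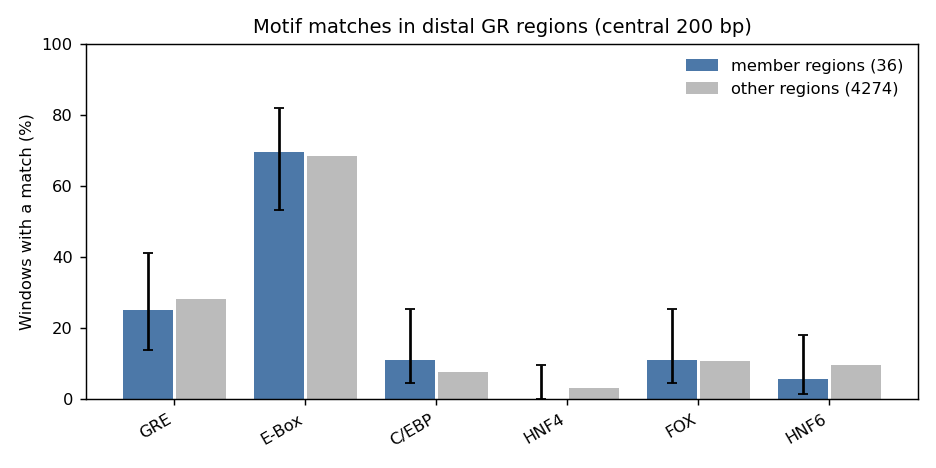
Percent of the central 200-bp windows of GR regions outside promoters that held each consensus, for 36 member regions (blue, with 95% Wilson intervals as error bars) and 4274 other regions (grey). The GRE was found in 25.0% and 28.2% and the E-Box in 69.4% and 68.3%, and each grey bar lies within the interval of the blue one.

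The 26 GR regions called in both replicates, at 23 members, were searched in full for their best GRE match. None had a perfect match, 7 had 1 mismatch, 6 had 2 and 13 had more. Of the 22 that were at most 2000 bp wide, 9 (40.9%, 23.3 to 61.3%) had a match with up to 2 mismatches, against 46.7% of 2612 such regions at other symbols with a like median width, 542 and 544 bp. A match with at most 1 mismatch was found in 5 of the 22 (22.7%), against 15.6% of the 2612, a difference that was not tested. The matches with 1 mismatch in regions of that width are shown as the closest to the consensus, on the plus strand of mm10, with the half-site positions in capitals.
C1ra, chr6:124509443-124509457: AGACCAcgcTGTCCC
F2, chr2:91636536-91636550: AGGACAggtTCTCCT
Fgg, chr3:83003239-83003253: GAAACAgacTGTTCT
Klkb1, chr8:45282012-45282026: AAAACAaaaTGTTCC
Serpinf2, chr11:75439486-75439500: AGCACAcggTGTTCT

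Of these, the Fgg and Klkb1 regions met E2A, and the F2 and Serpinf2 matches lay at promoters. The GR regions that cover the Fga and Fgb promoters also had a match with 1 mismatch, within the wide peaks of 2178 and 4260 bp. These matches, at chr3:83027823-83027837 and chr3:83047267-83047281, lay in the gene bodies beyond the promoter range. Only GR replicate 2 had a peak there.

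The 6 members that had no annotated peak in any sample were C1s1, C4b, C8g, F13b, Pros1 and Serpind1. For C4b, the classical pathway component, the nearest GR region lay 61361 bp from the TSS. Its close paralog C4a, which is not a member, had 2 and 5 GR peaks and none for E2A, and with uniquely mapped reads the copies are an uncertain pair.

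A further 42 genes of complement, coagulation and fibrinolysis were counted in the same way. GR peaks were annotated to 17 (40.5%, 27.0 to 55.5%), E2A peaks to 8 (19.0%) and shared peaks to 7 (16.7%), and 25 had no peak. These shares lay between those of the members (76.9%, 48.7% and 38.5%) and of all protein-coding genes (23.6%, 13.8% and 8.84%). Both lists were chosen with earlier results of these data known. A GR region called in both replicates was found at 6, among them C4a, Fcna and F9. Fcna, which encodes a ficolin of the lectin pathway, had 1 peak in each of the 4 samples and was the 1 gene of these with an E2A region called in both replicates. F9, the clotting factor upstream of factor X, had 1 peak in each GR replicate and none for E2A. C1qa, C1qb and C1qc, which encode the C1q chains and are known mainly from macrophages, had no peak.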

How the data were processed

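GR and E2A ChIP-Seq of wild-type mouse liver was analysed from the called peaks of 4 samples, 2 per ChIP. Reads had been mapped by the authors to the mm10 assembly (BWA-MEM), freed of duplicates (Picard) and restricted to uniquely mapped pairs. Libraries were then reduced to 18 (GR) or 22 (E2A) mio read pairs, and MACS2 called peaks in each sample separately. The submitters' processing notes name BWA 0.7.13, Picard 1.119 and MACS2 2.1.0, and the methods give other versions of the latter 2. The control, the peak threshold and the annotation tool are not given in the sources used here. The values the authors deposited are the start, end, width and distance to the TSS in bp, with gene feature and nearest gene, without normalization. No read counts or peak scores were among the values used, so intervals cover counting error only. Groups follow titles, antibody and genotype. The descriptions of both E2A samples name GR instead, 1 of them in E47-/- mice, GR replicate numbers in the list names are opposite to the titles, and a description in the supplement calls the livers Dex-treated where the labels say untreated. The paper states that both ChIPs were made from the same livers, and the labels do not say which samples share one.

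Called peaks overlapping by 1 bp or more between replicates of a ChIP were joined into regions, and GR and E2A regions sharing at least 1 bp were called shared. Exact permutation tests over samples, unpaired and within same-numbered pairs, compared numbers of called peaks, and all other results are counts or shares with 95% Wilson intervals. Background shares were taken over 21938 protein-coding genes of GENCODE M21, to which 5949 of the 6521 symbols were matched by Ensembl gene ID, and all 39 members were found. Motifs were counted on both strands in the central 200 bp of regions of at most 2000 bp, in the GRCm38 genome. The GRE consensus allowed up to 2 mismatches. CANNTG, its cores named above, and the consensus sequences of C/EBP, HNF4, FOX and HNF6 allowed none. The RefSeq promoter table held an entry for 30 members. Members with a shared peak, with GR in both replicates and no E2A, and with E2A and no GR were described in full, and every other member was accounted for. Some results for genes outside the members are not reported here. Sequences were shown for at most 6 members with peaks in most samples, plus GRE matches and the C3 promoter. The members, lists and tests were chosen with earlier results of these data known. On simulated data, 300 of 300 planted overlaps and 500 of 500 planted GREs were found. Alternatives changed the overlap, width, distance, windows, annotation and replicates required, and left out each replicate in turn. Tools were Python 3.11.15, samtools 1.23.1, matplotlib 3.10.9, pysam 0.24.0, statsmodels 0.14.6, scipy 1.17.1, pandas 2.3.3 and numpy 2.4.6.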

Additional observations from a re-analysis of the deposited data

How the results depend on the processing

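Of 75 alternative values, 59 stayed close to the reported one and 16 moved. Closeness was judged on the members alone, and at promoters the difference from other symbols turned although the member share did not move: 41.7% against 34.2% without GR replicate 2 and 40% against 50.5% with all samples. When a region had to be called in both replicates, 6 members had E2A and 2 a shared peak, 7.69% of member GR regions met E2A (17.2% at other symbols), and 28.6% of member E2A regions met GR (43.9%). Without E2A replicate 1, E2A was found at 10 members, a shared peak at 8, and 24.6% of GR regions met E2A (12.9%). Without E2A replicate 2 that share was 24.6% (26.7%). With peaks at least as wide as the median of their sample, 11 members had E2A and 9 a shared peak. With called peaks of at most 2000 bp, 59.5% of E2A regions met GR (55.8%). The share of windows with a GRE was 3.45% with at most 1 mismatch (5.29%), and that with CANNTG was 96.6% in whole regions (80.1%) and 91.4% in the central 400 bp (77.8%). Leaving out 1 replicate in turn gave 24 to 30 members with GR, 10 to 19 with E2A and 8 to 14 with a shared peak, 24.6 to 47.2% of GR regions meeting E2A, 45.9 to 90.9% of E2A regions meeting GR, 40 to 41.8% at promoters, 18.8 to 27.8% with a GRE, 63.9 to 70.8% with CANNTG, and a difference in called peaks of 14 to 33. With the replicate number as a block, that difference was 23.5 as before (exact permutation within pairs, p = 0.5). The pairing was added after seeing the data, as were the alternatives for E2A regions meeting GR and those without the fibrinogen genes. The other results are counts and shares with no test to which a block could be added. A stricter peak threshold was not run, since the values used hold no scores. A missing peak was not called, and binding below the threshold cannot be told apart from none.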
